A study of Mus musculus with 20 samples.

Results

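The Egr and Nr4a early transcription factors examined here were Egr1, Egr2, Egr3, Nr4a1, Nr4a2 and Nr4a3, 6 of the 27962 gene names on the array. They are picked out by gene name, with earlier results of these data known, and each gene was read from its probe with the highest mean log2 intensity over the 20 arrays. The mice were C57bl6/J females of 10 weeks or more, whose ovaries had been removed 10 to 14 days before a single injection under the skin. The injection was 100 µl sesame oil (vehicle), or the oil with 250 ng estradiol (E2), 750 µg bisphenol A (BPA, a monomer of polycarbonate plastic) or 750 µg HPTE (formed in the body from the insecticide methoxychlor). Each array carried Cy3-labelled RNA of 1 uterus, taken 2 h or 24 h after injection. Of the 7 groups, E2 24 h had 2 arrays, and vehicle, E2 2 h, BPA and HPTE at either time had 3 each. All mice shared the ovariectomy, the strain and the oil, and the vehicle uteri were labelled as 24 h samples, so what an oil injection alone does at 2 h cannot be told apart from a compound's effect at 2 h.

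Egr1, Egr2 and Egr3 encode zinc finger proteins that bind GC-rich DNA, and they are classic immediate early genes, transcribed within minutes of a growth signal without new protein synthesis. Signals through MAP kinase reach their promoters largely by way of serum response factor (SRF) and its partners, and the NAB corepressors that EGR proteins induce then restrain them. Nr4a1 (Nur77), Nr4a2 (Nurr1) and Nr4a3 (Nor1) encode orphan nuclear receptors that need no known ligand, and cAMP and calcium signals raise their amount through CREB. In the rodent uterus, Nr4a1 and Egr1 are known as early transcripts after estrogen.

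Signal was well above background on 72.7% to 81.3% of the probes of an array, and the 17 uterine marker genes were above background on every array. Transcripts of other tissues stood out on some arrays. The summed level of 10 spermatid genes, in units of the 75th percentile of the array, was 34.6 to 117 on the vehicle arrays and 0.334 to 14.2 on the treated arrays. That of 12 exocrine pancreas genes was 3379 and 256 on E2 2 h replicates 2 and 3, 7.47 and 19.7 on the E2 24 h arrays and 0.450 to 0.831 on the other 16. For 10 lymphocyte genes it was 26.52, 15.85 and 7.90 at BPA 2 h, 7.87 to 9.36 in vehicle and 3.86 to 14.56 in the other groups. For 8 myeloid genes it was 114 to 208 at BPA 2 h, 90.1 to 105 in vehicle and 61.3 to 172 in the other groups. Of 8 heat shock genes used as a sign of tissue handling, 7 were on the array, and their sum was 133 to 136 in vehicle, 194 to 235 in the 2 h groups, 228 to 250 at E2 24 h and 122 to 147 at BPA and HPTE 24 h. The part of these transcripts in the results was not tested. In whole uteri, fewer cells of a type and less RNA per cell cannot be told apart.

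At 2 h, 5 of the 6 members were higher than vehicle under every compound, and the sixth, Nr4a3, was not detected. A compound is said below to raise a gene that was higher at 2 h than in the vehicle uteri labelled as 24 h. Values below are processed intensities in arbitrary units, and differences are log2 differences after each array was scaled to its 75th percentile, with the adjusted p from limma. Among all 32456 probes tested, 11.1% rose against vehicle under E2, 19.3% under BPA and 19.9% under HPTE. For each of the 5 detected members, all 9 arrays at 2 h lay above all 11 other arrays on the scaled level. The narrowest gap was that of Egr2, from 0.65 to 1.40 on the log2 scale, and Egr3 had the gap from -3.86 to 0.48. How many of all probes separated in the same way was not counted.

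Egr1, the founding member of the zinc finger family, read 6411, 7784 and 6404 in vehicle. It read 32049, 35335 and 48259 at E2 2 h, then 34927, 32229 and 33193 at BPA 2 h and 39273, 35771 and 40138 at HPTE 2 h. No 2 h array came near a vehicle array, and the vehicle signal itself was far above background. E2 raised it 6.51-fold over vehicle (log2 2.70, SE 0.09, adjusted p = 1.19e-10), BPA 4.69-fold (2.23, SE 0.09, adjusted p = 1.03e-09) and HPTE 5.08-fold (2.34, SE 0.09, adjusted p = 5.56e-10).

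Egr2, best known as a regulator of myelination and hindbrain development, had the smallest rise among the 5. It read 1307, 1864 and 1577 in vehicle and 5051, 4045 and 6485 at E2 2 h. It read 4882, 5205 and 9023 at BPA 2 h, where replicate 3 stood above the other two, and 5142, 5250 and 5359 at HPTE 2 h. E2 raised it 3.82-fold (log2 1.93, SE 0.21, adjusted p = 7.36e-06), BPA 3.75-fold (1.91, adjusted p = 4.10e-06) and HPTE 3.04-fold (1.60, adjusted p = 1.52e-05).

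Egr3, known from muscle spindle development and lymphocyte activation, started low and had the highest fitted rise, an order that turned with normexp correction and quantile normalization, which compresses dim probes (3.91 for Egr3 and 4.29 for Nr4a1 under E2, log2), and, under BPA and HPTE, with the mean of a gene's probes (4.04 and 4.19 for Egr3, 4.23 and 4.30 for Nr4a1). It read 96.7, 122 and 113 in vehicle against 2998, 3074 and 4032 at E2 2 h. It read 3253, 2495 and 2940 at BPA 2 h and 3411, 3850 and 3202 at HPTE 2 h. These were rises of 35.6-fold (log2 5.15, SE 0.24, adjusted p = 3.07e-09), 25.1-fold (4.65, adjusted p = 6.78e-09) and 28.6-fold (4.84, adjusted p = 4.49e-09). A second Egr3 probe was much dimmer and was well above background only on the 9 arrays at 2 h, where it read 28.9 to 56.6, against 2.42 to 4.03 in vehicle. It therefore gives bounds only, at least 3.14-fold higher than vehicle under E2, at least 2.20-fold under BPA and at least 2.39-fold under HPTE. It entered the tests only because it was well above background at 2 h, so its rise is no separate support. Both Egr3 probes read higher at 2 h than in vehicle, and the dim one could not follow the gene at 24 h.

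Nr4a1, an orphan receptor of growth, apoptosis and steroidogenic signals, read 5725, 5088 and 5665 in vehicle. It read 82513, 100342 and 126040 at E2 2 h, with a wide spread, against 103645, 107294 and 110465 at BPA 2 h and 121922, 113605 and 121431 at HPTE 2 h. All 9 values exceeded every vehicle value by an order of magnitude. In folds the rises were 21.7 (SE 0.10 on the log2 scale, adjusted p = 1.33e-12) for E2, 18.7 (adjusted p = 2.75e-12) for BPA and 19.6 (adjusted p = 2.16e-12) for HPTE.

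Nr4a2, best known for the development of dopamine neurons, read 777, 890 and 705 in vehicle and 2761, 3681 and 5011 at E2 2 h. It read 4339, 3952 and 4646 at BPA 2 h and 4769, 5927 and 4459 at HPTE 2 h. The E2 arrays spread over a wider range than the BPA arrays, and each treated array was above each vehicle array. E2 raised it 5.53-fold (log2 2.47, SE 0.13, adjusted p = 1.45e-08), BPA 5.24-fold (2.39, adjusted p = 1.35e-08) and HPTE 5.77-fold (2.53, adjusted p = 7.32e-09).

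Nr4a3, the third orphan receptor, was not well above background on any of the 20 arrays, where its single probe read 1.93 to 12. Its highest values were at HPTE 2 h (8.82, 6.08 and 12), but without a group above background no fold is given and it did not enter the tests. With the filter on dim probes lifted, the HPTE 2 h group passed the test as higher than vehicle (adjusted p = 0.00169), than E2 2 h (adjusted p = 0.0141) and than HPTE 24 h (adjusted p = 0.00124), and its fall from 2 h to 24 h was steeper than that of E2 (adjusted p = 0.0315), all by limma and between readings that were not above background. E2 and BPA at 2 h did not pass against vehicle (adjusted p = 0.818 and 0.0785). An array reading at this level does not show that the gene was silent.

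**Figure D1:**
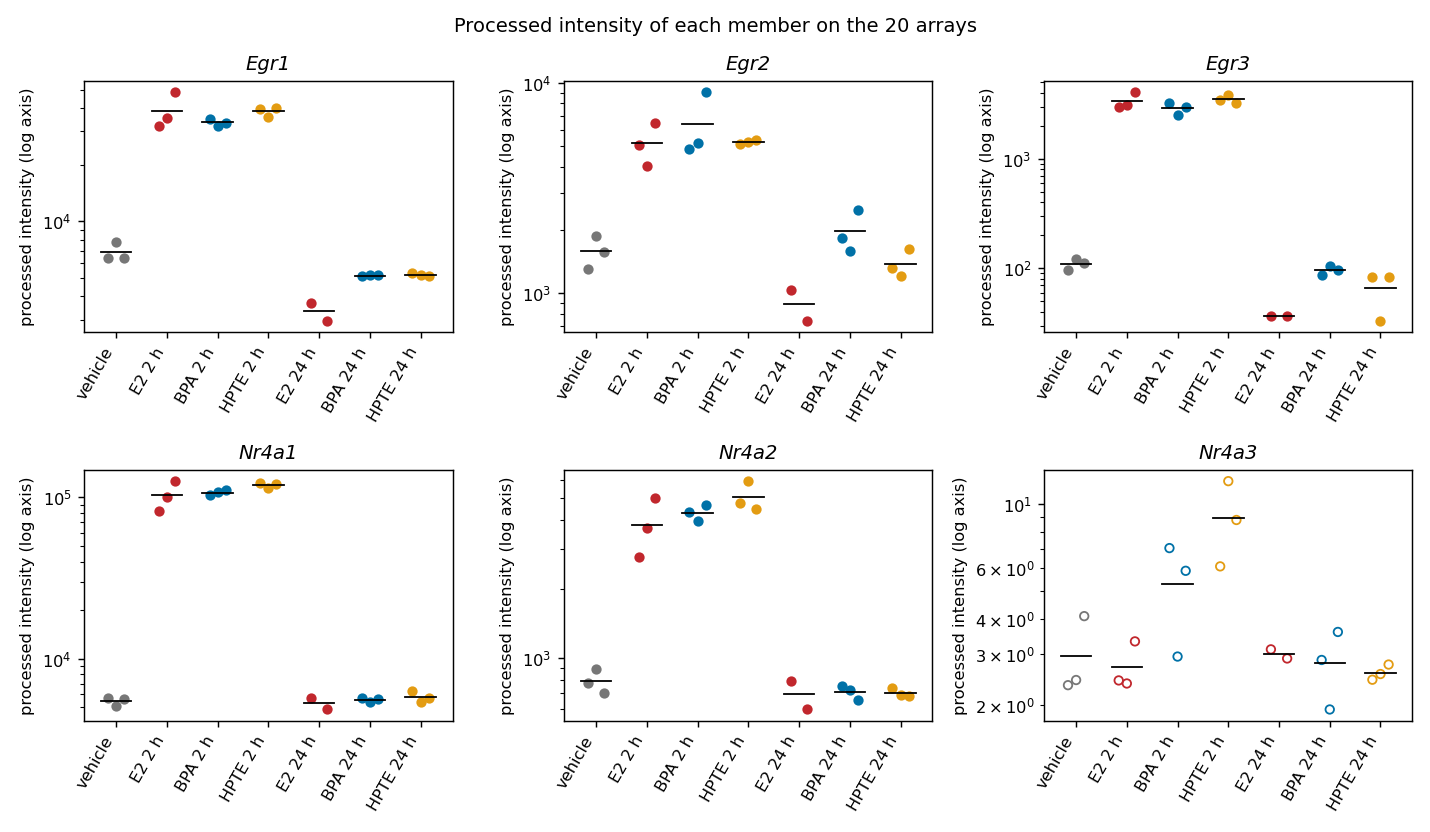
Processed intensity (log axis, arbitrary units) of each member on the 20 arrays by group, with 1 point per array and a line at the group mean. Filled points were well above background and open points were not, and the 5 detected members stand higher on all 9 arrays at 2 h, while Nr4a3 stays between 1.93 and 12.

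The slides gave the same picture. The 20 arrays lay on 6 slides, and 3 of these held a vehicle array. Within a slide, Nr4a1 was higher than the vehicle array of that slide by 4.46 under E2 (1 slide), by 4.17 to 4.32 under BPA (2 slides) and by 4.05 to 4.47 under HPTE (2 slides) on the log2 scale. Egr3 was higher by 5.32 under E2, by 4.71 to 4.82 under BPA and by 4.61 to 5.06 under HPTE. In the same order of compounds, the values were 2.79, 2.14 to 2.27 and 2.22 to 2.26 for Egr1. For Nr4a2 they were 2.57, 2.26 to 2.47 and 2.22 to 2.67. The widest range was that of Egr2 under BPA, 1.36 to 2.68, beside 1.96 under E2 and 1.42 to 1.75 under HPTE. Leaving out both E2 2 h arrays with pancreas transcripts, a setting chosen after seeing the data, left all 15 rises called.

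The windows before the transcription start, from RefSeq on GRCm38.p6, were available for 4 of the 6 members and are shown for 3 that were raised together at 2 h, to make visible the elements that CREB and SRF are known to bind. Each is the 250 bases before the start, 5′ to 3′ on the gene's strand. Capitals mark CRE half-sites (CGTCA on either strand) and, in Egr2, a CArG box, the core that SRF binds.
Nr4a1, chr15:101266596-101266845, plus strand: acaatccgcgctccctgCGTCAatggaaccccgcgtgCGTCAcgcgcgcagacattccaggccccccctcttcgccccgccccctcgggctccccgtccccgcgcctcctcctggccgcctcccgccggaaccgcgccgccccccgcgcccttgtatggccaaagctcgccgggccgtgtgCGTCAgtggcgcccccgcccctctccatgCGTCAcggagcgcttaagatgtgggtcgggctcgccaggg
Nr4a2, chr2:57124004-57124253, minus strand: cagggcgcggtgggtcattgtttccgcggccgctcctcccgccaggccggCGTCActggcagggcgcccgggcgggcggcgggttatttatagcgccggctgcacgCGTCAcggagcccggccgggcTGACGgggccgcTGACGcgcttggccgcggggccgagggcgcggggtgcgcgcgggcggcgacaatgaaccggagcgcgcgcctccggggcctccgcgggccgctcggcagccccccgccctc
Egr2, chr10:67537619-67537868, plus strand: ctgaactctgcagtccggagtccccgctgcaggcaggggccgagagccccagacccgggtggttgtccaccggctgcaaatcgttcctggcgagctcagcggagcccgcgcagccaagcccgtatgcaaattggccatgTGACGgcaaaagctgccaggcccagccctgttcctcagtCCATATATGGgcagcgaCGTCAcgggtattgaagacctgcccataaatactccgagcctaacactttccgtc
Nr4a1 and Nr4a2 each held 4 CRE half-sites, and Egr2 held 2 and the CArG box. The Egr2 window was picked for its matches out of 5 overlapping or neighbouring windows of that gene. Over all 32851 windows of 300 bases (250 before to 50 after a start), 20.8% held CGTCA and 1.63% a CArG box. The whole palindrome TGACGTCA was in none of the windows of these 3 genes and in 1.79% of all windows. An EGR site (GCGNGGGCG, either strand, any base at N) was in the Nr4a1 and Nr4a2 windows, against 5.55% of all windows, so those windows held 1 match each to the element that EGR proteins themselves bind. The GC box GGGCGG, which Sp1 binds and which can overlap an EGR site, was found 3 times for Nr4a1 and 4 times for Nr4a2 in the printed bases, and 35.7% of all windows held one. The printed Egr2 bases held neither an EGR site nor a GC box. G and C made up 72.3% of the 300-base window of Nr4a1 and 81.7% of that of Nr4a2. The shares over all windows were not matched for this content. Neither the full estrogen response element GGTCANNNTGACC (0.0700% of all windows) nor the NR4A element AAAGGTCA (1.51%) was in the windows of these 3 genes. The other available window, that of Nr4a3, which was not detected, held 4 CRE half-sites and no CArG box in its 300 bases. A match describes letters and not a bound site.

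The compounds were then compared with one another at 2 h. BPA and HPTE were given at the same mass dose, and E2 at a different one, so differences from E2 hold for these doses only. Between HPTE and BPA none of the 5 members differed by limma, and none had an unadjusted p under 0.05, where 0.438% of all probes passed in either direction. The 95% intervals of HPTE minus BPA were narrow for Egr1 (-0.08 to 0.32 on the log2 scale), Nr4a1 (-0.15 to 0.29) and Nr4a2 (-0.15 to 0.43). They were wider for Egr2 (-0.74 to 0.14) and Egr3 (-0.32 to 0.71), so differences of that size remain possible. The molecules differ at the carbon that joins their phenol rings, which bears methyl groups in BPA and a trichloromethyl group in HPTE.

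Against E2, Egr1 alone was lower at 2 h, where 11.1% of all probes were lower under BPA and 8.18% under HPTE. It was lower by a factor of 1.39 under BPA (log2 -0.47, 95% interval -0.67 to -0.27, adjusted p = 0.00356) and by 1.28 under HPTE (-0.36, -0.56 to -0.16, adjusted p = 0.017). On the processed intensities the groups overlapped, and without scaling between arrays the differences were -0.18 (adjusted p = 0.34) and 0.02 (adjusted p = 0.941). Without both E2 2 h arrays that held pancreas transcripts they were -0.30 (adjusted p = 0.136) and -0.19 (adjusted p = 0.386). On the 2 slides that held both groups, Egr1 differed from E2 by -0.65 and -0.52 under BPA and by -0.57 and -0.38 under HPTE. The E2 arrays on these slides were replicates 2 and 3, the same 2 that held pancreas transcripts. The values within slides are therefore not separate from those arrays. For the other 4 members the difference from E2 was between -0.50 and 0.06 and did not pass the test. The widest intervals were those of Egr3, from -1.02 to 0.01 under BPA and from -0.83 to 0.20 under HPTE.

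**Figure D2:**
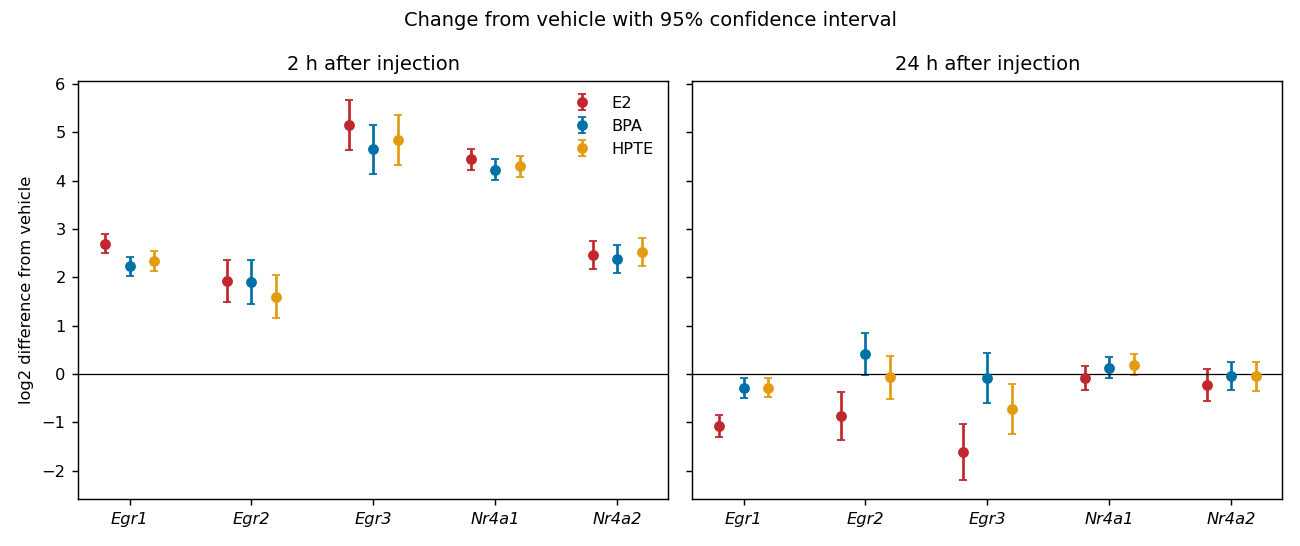
Log2 difference from vehicle (y axis) for the 5 detected members at 2 h (left) and 24 h (right), with a point for E2, BPA and HPTE and bars for the 95% confidence interval. At 2 h all points lie between 1.60 and 5.15, and at 24 h the Egr genes under E2 lie between -1.61 and -0.87.

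By 24 h the rise was over. Under E2 the 3 Egr genes were below vehicle, and the 2 detected Nr4a genes did not pass the test in either direction; the difference between the families was not tested. At E2 24 h, 3 of the 5 members were lower than vehicle, where 37.6% of all probes were lower, so a lower reading was common at that time. Egr1 read 3690 and 2972, below every vehicle array, and was 2.10-fold lower (log2 -1.07, 95% interval -1.30 to -0.85, adjusted p = 4.48e-07). Egr2 read 1035 and 740, also below every vehicle array, and was 1.82-fold lower (-0.87, -1.36 to -0.37, adjusted p = 0.00404). Egr3 read 36.8 and 36.5, about a factor of 3.06 below vehicle (-1.61, -2.19 to -1.04, adjusted p = 9.30e-05). The size of the Egr3 fall depended on the processing, since it was -0.29 (adjusted p = 0.0196) with normexp correction and quantile normalization and -0.60 (adjusted p = 0.0364) with the mean of both Egr3 probes.

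Nr4a1 read 5740 and 4845 at E2 24 h, on both sides of the vehicle values (log2 -0.08, 95% interval -0.33 to 0.16, adjusted p = 0.55). Nr4a2 read 792 and 595 (-0.22, -0.55 to 0.10, adjusted p = 0.21). The group of 2 arrays limits both intervals, and a fall like that of Egr1 lies outside them.

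Under BPA at 24 h, none of the 5 members differed from vehicle by limma and 1 (Egr1) had an unadjusted p under 0.05, where 8.03% of all probes were lower. Egr1 read 5114, 5204 and 5169, below the 3 vehicle values, with a difference of -0.29 (95% interval -0.49 to -0.09, adjusted p = 0.053). Egr2 read 1838, 1593 and 2482, with a difference of 0.42 (-0.02 to 0.86, adjusted p = 0.201), and Egr3 read 87.4, 106 and 96.3. Nr4a1 read 5745, 5358 and 5596, and Nr4a2 read 755, 724 and 654, both overlapping vehicle.

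Under HPTE at 24 h, 2 of the 5 were lower, where 19.1% of all probes were. Egr1 read 5293, 5167 and 5122 (log2 -0.28, 95% interval -0.48 to -0.08, adjusted p = 0.0308), and with slide as a block the difference was -0.20 (adjusted p = 0.189). Egr3 read 82.8, 33.2 and 83.9 (-0.73, -1.24 to -0.21, adjusted p = 0.0306). Replicate 2, on the slide scanned on the later day, stood apart, and without it the difference was -0.32 (adjusted p = 0.101). Egr2 (1314, 1210 and 1633), Nr4a1 (6308, 5361 and 5742) and Nr4a2 (741, 685 and 683) overlapped vehicle.

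Set against E2 at 24 h, the 3 Egr genes were higher under both other compounds, where 33.2% of all probes were higher under BPA and 27.3% under HPTE. Egr1 was higher by 0.78 under BPA (95% interval 0.56 to 1.0, adjusted p = 1.42e-05) and by 0.79 under HPTE (0.57 to 1.01, adjusted p = 1.84e-05). Egr2 was higher by 1.29 (adjusted p = 2.17e-04) and 0.79 (adjusted p = 0.01), and Egr3 by 1.53 (adjusted p = 1.85e-04) and 0.89 (adjusted p = 0.0132). The Egr3 differences shrank to 0.30 (adjusted p = 0.0184) and 0.17 (adjusted p = 0.193) with normexp correction and quantile normalization, and to 1.03 (adjusted p = 0.0016) and 0.32 (adjusted p = 0.298) with the mean of both probes. Under HPTE the Egr3 call was also lost without E2 24 h replicate 2 (0.66) or HPTE 24 h replicates 1 or 3 (0.68 each). That of Egr2 was lost with slide as a block (0.74, adjusted p = 0.0505) and without E2 24 h replicate 3 (0.78). For Nr4a1 the differences were 0.22 (-0.03 to 0.46, adjusted p = 0.116) and 0.28 (0.03 to 0.52, adjusted p = 0.0564), and for Nr4a2 they were 0.19 and 0.18, none past the test.

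Between HPTE and BPA at 24 h none of the 5 passed by limma, where 4.08% of all probes did, and 2 (Egr2 and Egr3) had an unadjusted p under 0.05. The Egr2 difference, HPTE minus BPA, was -0.49 (95% interval -0.93 to -0.05, adjusted p = 0.186) and that of Egr3 was -0.65 (-1.16 to -0.13, adjusted p = 0.139). Nr4a1 (-0.16 to 0.28), Egr1 (-0.19 to 0.21) and Nr4a2 (-0.30 to 0.27) had intervals between -0.30 and 0.28.

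**Figure D3:**
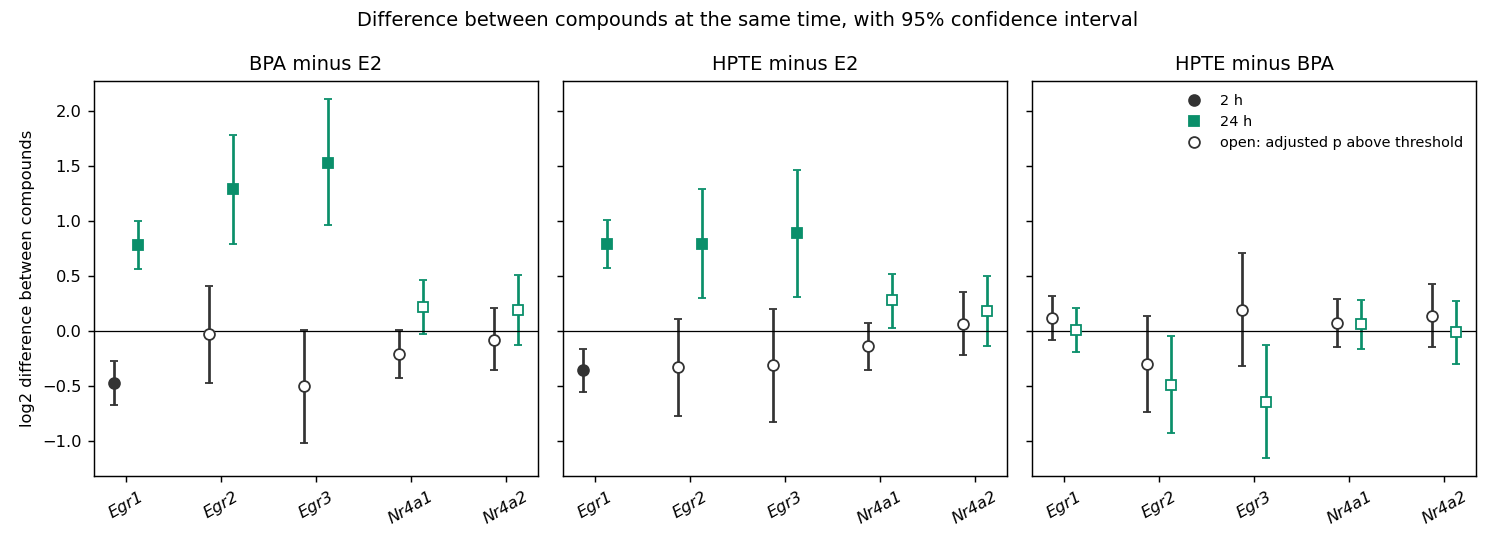
Log2 difference between 2 compounds at the same time (y axis) for the 5 detected members, at 2 h (circles) and 24 h (squares), with 95% confidence intervals and open symbols where the adjusted p missed the threshold. The Egr genes sit above 0 at 24 h in both panels against E2, from 0.78 to 1.53, and no symbol is filled for HPTE minus BPA.

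The fall from 2 h to 24 h needs no vehicle array, and so none of the arrays with the highest spermatid sums. All 5 members fell under each compound, where 30.1% of all probes fell under E2, 20.2% under BPA and 24.6% under HPTE. On the log2 scale, 24 h minus 2 h, the change of Egr3 was -6.77 under E2 (adjusted p = 2.76e-10), -4.73 under BPA (adjusted p = 4.18e-09) and -5.57 under HPTE (adjusted p = 7.72e-10), and under E2 it was -4.20 with normexp correction and quantile normalization. Over all tested probes, 2 fell more than Egr3 under E2, 21 under BPA and 14 under HPTE. In the same order of compounds, the change was -4.52, -4.09 and -4.10 for Nr4a1 and -2.69, -2.42 and -2.58 for Nr4a2. It was -3.78, -2.52 and -2.63 for Egr1 and -2.80, -1.48 and -1.68 for Egr2.

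The fall was steeper under E2 for 4 of the 5 members by the interaction of compound and time, where 28.9% of all probes had a positive interaction for BPA and 25.4% for HPTE. The change of Egr1 was less negative by 1.26 under BPA (SE 0.14, adjusted p = 3.65e-06) and by 1.15 under HPTE (SE 0.14, adjusted p = 1.26e-05). The values were 1.31 (adjusted p = 0.00235) and 1.12 (adjusted p = 0.00782) for Egr2, and 2.04 (adjusted p = 2.53e-04) and 1.20 (adjusted p = 0.0135) for Egr3, and under HPTE the Egr3 value was 1.12 (adjusted p = 0.0723) without both E2 2 h arrays that held pancreas transcripts and 0.67 (adjusted p = 0.0996) with the mean of both probes. Those of Nr4a1 were smaller, at 0.43 (adjusted p = 0.0283) and 0.42 (adjusted p = 0.0348), lost their calls when any of several single arrays was left out, and were 0.21 (adjusted p = 0.328) and 0.20 (adjusted p = 0.366) without both E2 2 h arrays that held pancreas transcripts. Nr4a2 did not pass, at 0.27 (95% interval -0.16 to 0.70) and 0.11 (-0.32 to 0.54). Scaling to spike-in probes left 1 of the 4 calls for BPA, that of Egr3, and none for HPTE. No member passed the interaction between HPTE and BPA by limma (1, Egr3, at an unadjusted p under 0.05), and 0.0863% of all probes did.

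Across the 7 groups all 5 detected members differed by the moderated F test, with 81.4% of all probes, and the order of groups was much alike. E2 24 h had the lowest scaled mean of each, and a 2 h group the highest. For Nr4a1 the 4 lowest groups (vehicle and all groups at 24 h) overlapped each neighbour in the order, with means from 1.59 to 1.87 on the scaled log2 level, and the 2 h groups overlapped with means from 5.90 to 6.12. For Egr1 the arrays of neighbouring groups did not overlap except BPA 24 h with HPTE 24 h and BPA 2 h with HPTE 2 h. Nr4a2 was the one member with its highest mean at HPTE 2 h (1.41) and not at E2 2 h (1.34), and those groups overlapped.

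As a description over the same 20 arrays, which share slides and 75th percentile scaling, the scaled levels of Nr4a1 and Nr4a2 had a Pearson r of 0.994 and those of Egr1 and Egr3 an r of 0.990. Egr2 was the least like the others, with r of 0.924 to 0.953. These values take in the step between 2 h and the other groups. Within the 9 arrays at 2 h, r between members ran from -0.01 (Nr4a2 and Egr2) to 0.97 (Egr1 and Egr3) and was 0.47 for Nr4a1 and Nr4a2, and within the other 11 arrays it ran from 0.23 (Nr4a1 and Nr4a2) to 0.75 (Nr4a2 and Egr1). The genes most like each member were sought among tested probes, leaving out the members and probes with only clone, predicted gene or accession names. For Nr4a1 these were Oxtr, the oxytocin receptor (r = 0.992), Egr4 (0.991) and Fosl2, of the Fos family (0.990). Those most like Nr4a2 were Egr4 (0.990), Fosl2 (0.989) and Arc, an immediate early gene of neurons (0.988). Egr1 was most like Egr4 (0.993), the growth inhibitor Btg2 (0.988) and the MAP kinase phosphatase Dusp1 (0.988), and Egr3 was most like Dusp1 (0.992), Egr4 (0.991) and Arc (0.986). The nearest to Egr2 were Mafk, a small Maf factor (0.956), Atf3, a stress-induced CREB family factor (0.954), and Ndnf (0.952).

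Genes of the same pathways were then described by lists, with the median over all probes at 2 h being -0.06 under E2, -0.10 under BPA and -0.09 under HPTE. Beside the shares of all probes that rose, given above, 17.0% fell at 2 h under E2, 30.2% under BPA and 28.2% under HPTE, and at 24 h 26.3%, 5.09% and 14.9% rose and 37.6%, 8.03% and 19.1% fell. Of 6 partners of EGR and NR4A proteins, 2 rose at 2 h under each compound, and 1 fell under E2, 2 under BPA and 1 under HPTE. Egr4, the fourth EGR family member, read 23.0 to 41.2 in vehicle and 3148 to 5692 at E2 2 h, 2779 to 3482 at BPA 2 h and 3533 to 4235 at HPTE 2 h. On the log2 scale it rose by 7.36 (E2), 6.76 (BPA) and 6.96 (HPTE), a larger fitted rise than that of any member. Its vehicle readings were dimmer than those of Egr3, whose rise changed with the processing, and this rank was not examined under other processing. At E2 24 h Egr4 was not well above background (6.66 and 7.42), at least 2.02-fold below vehicle (adjusted p = 8.68e-06) and at least 332-fold below E2 2 h (adjusted p = 1.03e-11). Nab2, the corepressor that EGR proteins induce, rose by 2.15, 1.57 and 2.12, with adjusted p from 4.68e-06 to 8.33e-05. Nab1, its constitutive relative, stood at 0.06 under E2 (adjusted p = 0.763) and fell under BPA (-0.30, adjusted p = 0.0444) and HPTE (-0.33, adjusted p = 0.0331). Of the retinoid X receptors that pair with NR4A proteins, Rxrg changed by -0.54 under E2 (adjusted p = 0.0352), and at E2 24 h by -1.27 (adjusted p = 5.14e-05).

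Of 15 textbook EGR targets, 7 rose and none fell under E2 at 2 h, 9 rose and none fell under BPA, and 9 rose and 1 fell under HPTE, with medians of 0.28, 0.96 and 0.73. Ptges, which makes prostaglandin E, rose by 2.68, 3.50 and 4.10, and Vegfa, the vascular growth factor, by 2.34, 2.31 and 2.77. Plau, which encodes urokinase, rose by 1.97, 1.26 and 1.61, and Nab2 is in this list too. All 9 of these values passed the test, with adjusted p from 7.47e-08 to 4.44e-04. At 24 h the same list had 1 rise and 4 falls under E2, none and 2 under BPA and 1 and 3 under HPTE, so the 4 of 15 that fell under E2 were a smaller share than the 37.6% of all probes.

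Of 14 NR4A targets, mostly steroidogenic, dopamine neuron and metabolic genes, 10 were tested. Under E2 at 2 h none rose and 4 fell, under BPA 1 rose and 4 fell, and under HPTE none rose and 4 fell, with medians of -0.40, -0.61 and -0.63. Insl3, an insulin-like hormone of gonadal cells, changed by -1.75, -1.18 and -1.58, and G0s2, an inhibitor of fat breakdown, by -1.26, -1.92 and -1.89. Pomc, the precursor of corticotropin, changed by -0.81, -1.26 and -1.14, and Slc2a4, the insulin-responsive glucose transporter, by -0.54, -0.82 and -0.53. The vehicle arrays, the reference for these falls, were also those highest in spermatid genes. The summed level of 6 fat cell genes was 43.0 to 99.2 in vehicle and 17.9 to 78.6 in the 2 h groups, ranges that overlapped. The part of either tissue in these falls was not tested. At E2 24 h, 3 rose and 4 fell.

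Of 12 SRF and CREB pathway factors, 10 were tested. At 2 h, 3 rose and 1 fell under E2, 4 rose and 2 fell under BPA, and 5 rose and 3 fell under HPTE, with medians of 0.02, 0.10 and 0.18. Srf itself rose by 0.72 under E2 (adjusted p = 2.58e-04), by 1.38 under BPA (adjusted p = 4.15e-07) and by 1.64 under HPTE (adjusted p = 8.08e-08). Atf1, a CREB relative, rose by 0.44, 0.47 and 0.58. Mrtfb, an SRF coactivator, rose by 0.48 under E2 and 0.43 under HPTE and stood at 0.28 under BPA (adjusted p = 0.0994). Crtc3, a CREB coactivator, changed by -0.25, -0.23 and -0.36.

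Of 20 other immediate early genes, 17 rose under E2, 18 under BPA and 17 under HPTE at 2 h, with medians of 2.03, 1.99 and 1.98, and 1 fell under HPTE. Fos rose by 5.38, 4.28 and 4.67, and Arc by 4.97, 5.02 and 5.23. Atf3 rose by 3.22, 3.48 and 3.43, and Ier2 by 2.99, 2.36 and 2.96. At 24 h 2 were higher and 9 lower under E2 (median -0.12, against -0.15 over all probes), none higher and 3 lower under BPA, and 1 higher and 5 lower under HPTE. Arc changed by -1.69 from vehicle at E2 24 h (adjusted p = 1.22e-04), like the Egr genes, while Fos stood at 0.46 (adjusted p = 0.22).

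**Figure D4:**
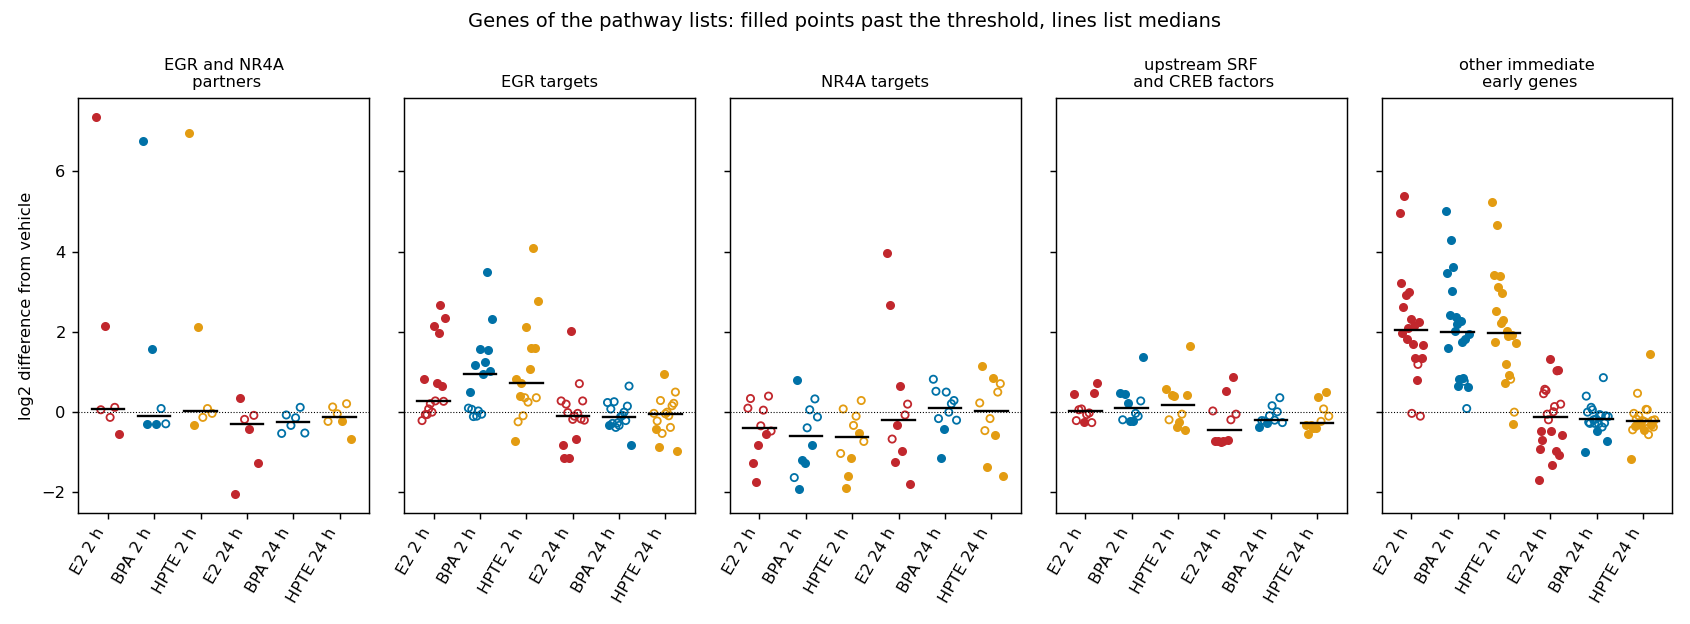
Log2 difference from vehicle (y axis) for the tested genes of 5 lists in the 6 treated groups (x axis), with 1 point per gene, filled where the adjusted p passed the threshold, and a line at the list median. The other immediate early genes have medians near 2 at 2 h (1.98 to 2.03), and Egr4 stands highest among the partners, at 6.76 to 7.36.

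The probes lay, on the mouse build mm7 that the arrays were annotated with, at chr10:67145376-67145435 (Egr2, 10 spots averaged), chr14:64726656-64726715 (Egr3) and chr14:64723504-64723563 (the second Egr3 probe) on the plus strand. Those of Nr4a1 (chr15:101260484-101260543, plus), Nr4a2 (chr2:57108976-57109035, minus) and Nr4a3 (chr4:48081632-48084818, plus) had 1 spot each, as did that of Egr1 on chromosome 18. Exon and UTR annotation of that build was not used here.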

How the data were processed

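Deposited scanner files gave the processed intensity of each spot, background subtracted within the array by the authors with Agilent Feature Extraction 9.5 and not scaled between arrays per the file headers. Flags for control, outlying and well above background spots, of type other, also came from the deposited files. On 20 of 20 arrays the values of the deposited series matrix were equal to these (tolerance 1e-06). Spot values were log2 transformed, averaged per probe without the spots flagged as outlying, and centred on each array's 75th percentile (1320 to 2046). A probe entered the tests if some group had all its arrays flagged well above background and no more than 2 arrays lacked a value (32456 of 41174 probes). limma 3.58.1 in R 4.3.3 (functions lmFit and eBayes) fitted 1 mean per group. P values were two-sided and adjusted by Benjamini-Hochberg over all probes within each of 18 contrasts, at a threshold of 0.05. The vehicle arrays served every contrast with vehicle. Each array was 1 uterus, and the number of arrays limits the precision.

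The members and gene lists were chosen with earlier results of these data known. List genes named are up to 4 per list past the threshold at E2 2 h with the largest change, and likeness names the 3 genes with the highest Pearson r per member. Members, and clone, predicted gene or accession names, were left out of the likeness search. Nab1, and the 24 h values of Egr4, Rxrg, Arc and Fos, were added after their values were seen. Where a group had no array well above background, folds are bounds, taken per dim array against the weakest probe flagged above background there, or the probe's own signal if higher. An adjusted p beside such a bound is that of the fitted difference and not of the bound. Motifs were searched on both strands of RefSeq promoter windows. The fit was tested on simulated data. No pairing of arrays by replicate number was seen, and the main fit used none. Alternatives covered background, normalization, filter, blocks, array weights, probe choice and each array left out.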

Additional observations from a re-analysis of the deposited data

Results flagged for a closer look

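The following differences between treated groups, on the log2 scale by limma, passed the test for members. At 2 h Egr1 was lower than under E2 by -0.47 (BPA) and -0.36 (HPTE). At 24 h the differences from E2 were 0.78 (BPA) and 0.79 (HPTE) for Egr1, 1.29 and 0.79 for Egr2, and 1.53 and 0.89 for Egr3. The change from 2 h to 24 h was -3.78 (E2), -2.52 (BPA) and -2.63 (HPTE) for Egr1, -2.80, -1.48 and -1.68 for Egr2, and -6.77, -4.73 and -5.57 for Egr3. It was -4.52, -4.09 and -4.10 for Nr4a1 and -2.69, -2.42 and -2.58 for Nr4a2. The change differed from that of E2 by 1.26 (BPA) and 1.15 (HPTE) for Egr1, by 1.31 and 1.12 for Egr2, by 2.04 and 1.20 for Egr3 and by 0.43 and 0.42 for Nr4a1. Groups held 2 or 3 arrays, too few for a test of single arrays that stand apart.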

How the results depend on the processing

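The 15 rises at 2 h and the 15 falls from 2 h to 24 h were called under all 32 alternatives that gave a value for each member, and so were the falls of Egr1 and Egr3 at E2 24 h. Egr2 at E2 24 h was called under 31 of 32, and not with spike-in scaling (-0.85, adjusted p = 0.0866). Smaller contrasts depended on scaling, and the cause was not tested. Over the 6 treated groups against vehicle, the median of all probes moved by -0.23 to 0.14 without scaling, by -0.31 to 0.23 with spike-in scaling, by 0.05 to 0.15 with quantile normalization and by 0.04 to 0.15 with normexp.

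For BPA minus E2 at 2 h (1 call) the count was 0 with a 2-fold minimum, no scaling, the compared groups only, spike-in scaling or without both E2 2 h arrays with pancreas transcripts, 2 with normexp or without the slide of the later day, and 1 to 2 with 1 array left out. For HPTE minus E2 at 2 h (1 call) it was 0 under those same 5 settings, 2 with normexp and 0 to 1 with 1 array left out. Egr1 for HPTE minus E2 at 2 h was 0.02 without scaling, the opposite sign, and lost its call without E2 2 h replicate 2 (-0.34), E2 2 h replicate 3 (-0.29) or HPTE 2 h replicate 2 (-0.27). For BPA 24 h against vehicle (0 calls) the count was 1 with array weights, normexp or without both E2 2 h arrays, and 0 to 1 with 1 array left out. For HPTE 24 h against vehicle (2 calls) it was 0 with a 2-fold minimum, the compared groups only, slide as a block or without the slide of the later day, 1 with gene means, normexp, quantile normalization or spike-in scaling, and 0 to 2 with 1 array left out. For HPTE minus E2 at 24 h (3 calls) it was 0 with a 2-fold minimum or spike-in scaling and 1 without scaling, and 2 to 4 with 1 array left out. In that contrast Egr3 was not called with normexp (0.17), gene means (0.32) or the compared groups only (0.89), nor Egr2 with slide as a block (0.74), and Egr1 lost its calls against E2 at 24 h with spike-in scaling (0.63 for BPA, 0.46 for HPTE). For the interaction of BPA (4 calls) it was 2 without scaling, 1 with spike-in scaling and 3 to 5 with 1 array left out. For that of HPTE (4 calls) it was 1 without scaling, 0 with spike-in scaling, 2 with the compared groups only, 2 without both E2 2 h arrays and 2 to 4 with 1 array left out, the lowest without E2 24 h replicate 2 (Egr3 0.98). Single arrays changed further calls. Against vehicle at HPTE 24 h, Egr1 lost its call without HPTE 24 h replicate 1 or 3 or vehicle replicate 1 or 2 (-0.30 to -0.21), and Egr3 without HPTE 24 h replicate 2 (-0.32) or any vehicle array (-0.79 to -0.67). Egr1 at BPA 24 h gained one without E2 2 h replicate 1, HPTE 2 h replicate 2 (-0.29 each) or vehicle replicate 3 (-0.34). The Nr4a1 interactions lost theirs without E2 2 h replicate 2 or 3, E2 24 h replicate 2, BPA 2 h or 24 h replicate 1 (0.33 to 0.41 for BPA), HPTE 2 h replicate 2 or HPTE 24 h replicate 1 (0.32 to 0.37 for HPTE), and that of Nr4a2 for BPA gained one without E2 2 h replicate 1 (0.44). The Nr4a1 interaction for HPTE was -0.09 without scaling and -0.23 with spike-in scaling.

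With a replicate block no count changed, at 5 for each 2 h group against vehicle, 3 for E2 24 h and 4 for the interactions with E2. Deviations from the group means had a mean correlation of -0.02 over 57 pairs of same-numbered arrays (-0.36 to 0.33). It was 0.01 over 114 pairs with other numbers, so no pairing by number was seen. These values cannot show whether mice were matched. Pairs on the same slide had a mean of 0.09 (25 pairs, -0.14 to 0.51). Nr4a3 and the dim Egr3 probe are limited by background.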
